A study of Gallus gallus with 30 samples.

Results

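After ovulation the granulosa and theca layers of a hen's follicle stay behind in the ovary as the postovulatory follicle (POF), which forms no corpus luteum and is resorbed. The granulosa cells, which had fed and enclosed the oocyte, luteinize for a short time and then die, and while it lasts the POF takes part in timing the laying of the egg it released. Genes whose transcripts are low in growing follicles and higher in the POF describe how the RNA of the sampled layer differs once the oocyte is released.

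Of the 23910 genes with values, 199 met a rule for such a pattern. They had at least 2 FPKM in at least 2 of the 3 POF libraries, and a mean below 0.5 FPKM in each of the other 9 stages. FPKM are fragments of a transcript scaled by its length and by the mapped fragments of the library. Only 11 of the 199 (5.53%) held the minimum in all 3 POF libraries. The values of POF and of the other stages thus chose the genes, and POF is not tested against another stage here.

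The libraries were made from granulosa cell layers of healthy, untreated Luhua hens aged 31 weeks, with 3 biological replicates in each of 10 stages. The prehierarchical follicles were small white (SWF), large white (LWF), small yellow (SYF) and large yellow (LYF), the preovulatory follicles ran from F5 to F1, the next to ovulate, and POF came last. The labels do not give the hen of each library, nor how long after ovulation a POF was taken. For 6 libraries the labels exchange LWF and SYF, so both stages are named here by the column of the table, and the library called LWF_2 is titled as replicate 2 of SYF.

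A library summed to between 471009 and 642207 FPKM, and the number of fragments behind each value is unknown. None of the 199 identifiers is paired with a gene name in the sources used here, so their functions are not described. For the same reason the cell types in these layers could not be checked. ZP3, an egg coat protein that granulosa cells make in birds, is given for some libraries. Its stage mean rose from 1101 FPKM in SWF to 69342 in F1, so its level does not measure how many granulosa cells a layer held. Some libraries stood apart. POF_3 differed from POF_1 and POF_2, and LWF_2 differed from LWF_1 and LWF_3, and results that rest on them are given with and without them.

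Applied to each other stage in turn, the same rule found 25 genes for SWF, of which 4 (16.0%) held in all 3 libraries, and 2 genes for F1, neither of which did. It found 0 genes for LWF, SYF, LYF, F5, F4, F3 or F2. Each of these stages lies between others of the series, where the gene must also average below 0.5 FPKM. The rule thus leaves them less room than a stage at an end, and the counts are not a like comparison. In all, 11210 genes reached 2 FPKM in at least 2 POF libraries, and 9453 of them (84.3%) did so in all 3. The 199 genes are therefore a small set within POF, and the shares held in all 3 libraries are given as a description, since the rule used these values.

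The 199 genes were low to moderate in POF. Their median was 5.34 FPKM in POF_1, with a range from 0.674 to 84.4. In POF_2 the median was 3.82 FPKM, from 0.390 to 79.8. In POF_3 it was 0.213 FPKM, from 0 to 15.2, and 46 of the genes were listed at 0. POF_1 and POF_2 thus carried nearly all of the signal. Values above 10 FPKM were read for 46 genes in POF_1, for 28 in POF_2 and for 2 in POF_3. Even the highest of them was not among the most abundant transcripts, as 648 genes of POF_1 and 774 of POF_2 lay at or above it. Together the 199 genes made up 0.364% of the summed FPKM in POF_1, 0.264% in POF_2 and 0.0351% in POF_3.

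**Figure D1:**
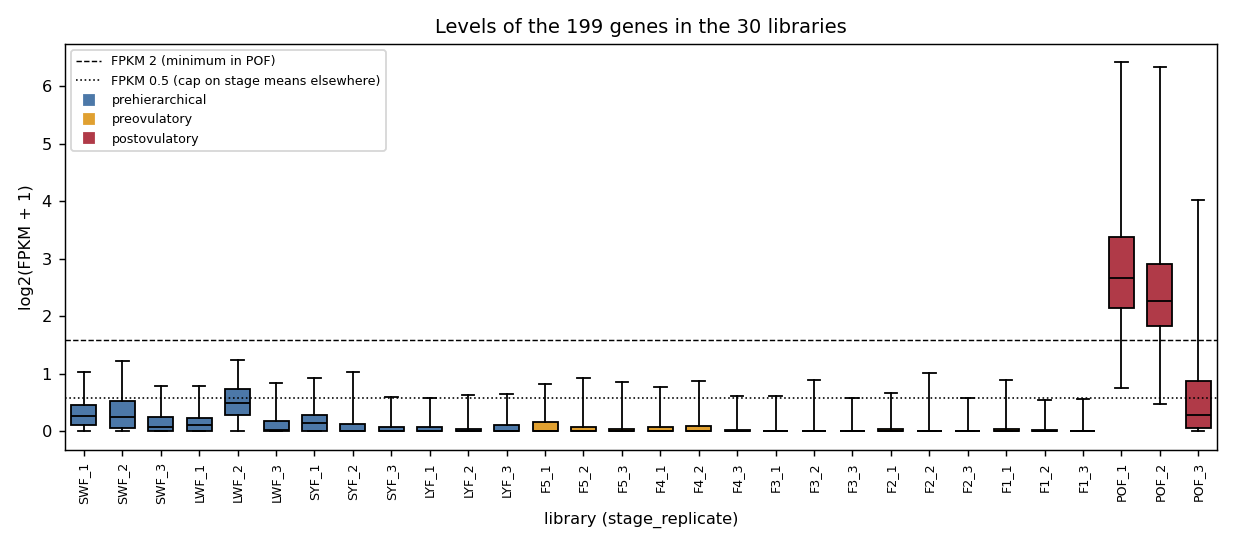
Levels of the 199 genes in each of the 30 libraries, as log2(FPKM + 1). Boxes span the quartiles, the line is the median and whiskers reach the lowest and highest gene. The boxes of POF_1 and POF_2 lie above the minimum of 2 FPKM, whereas the medians are 0.213 FPKM in POF_3 and 0.396 FPKM in LWF_2.

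The gene with the highest mean in POF was ENSGALG00000054999. It read 84.4 FPKM in POF_1, 45.7 in POF_2 and 0 in POF_3, a mean of 43.4 ± 42.3 (SD, n = 3). In the 27 libraries of the other stages its lowest value and its median were 0 and its highest was 1.03 FPKM, in LWF_2. The libraries of the other LWF replicates read 0.0753 and 0 FPKM. It was thus high in 2 POF libraries, low but present in LWF_2 and listed at 0 in POF_3, as were 46 of the 199 genes.

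The gene with the highest value in its lowest POF library was ENSGALG00000004980. It read 5.97 FPKM in POF_1, 13.4 in POF_2 and 3.70 in POF_3, a mean of 7.69 ± 5.07 (SD, n = 3). In the other 27 libraries it ran from 0 to 0.632 FPKM with a median of 0.0350, and the highest was again LWF_2. This gene was above 0 in 20 of those libraries, so it was low rather than absent before ovulation.

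By the libraries in which they reached the minimum, the genes fell into 4 patterns of very unequal size. The pattern of POF_1 and POF_2 without POF_3 held 170 genes (85.4%). A further 14 reached it in POF_1 and POF_3 and 4 in POF_2 and POF_3, and 11 in all 3. POF_3 therefore took part in only 29 of the 199.

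The 11 genes found in all 3 libraries ran from 2.54 to 23.5 FPKM in POF_1, from 2.01 to 13.4 in POF_2 and from 2.14 to 6.60 in POF_3. The highest of the 3 libraries was POF_1 for 8 of them, POF_2 for 2 and POF_3 for 1. For 4 of the 11 the highest value was at most 2 times the lowest, so even where all libraries held the minimum their levels mostly differed by more than 2-fold. The most even gene read 2.54, 2.42 and 2.14 FPKM in POF_1, POF_2 and POF_3.

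Some genes were far higher in one POF library than in the others. One gene read 79.8 FPKM in POF_2, 7.72 in POF_3 and 0.674 in POF_1. Another read 57.9 FPKM in POF_1, 1.87 in POF_2 and 2.73 in POF_3. The highest value of any of the genes in POF_3 was 15.2 FPKM, for a gene with 2.04 in POF_1 and 0.686 in POF_2. The last of these genes was highest in POF_3, unlike most of the set.

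Between POF_1 and POF_2, 128 of the 199 genes (64.3%) were higher in POF_1, with a median log2 ratio of FPKM + 1 of 0.37. The difference exceeded 2-fold for 66 genes towards POF_1 and for 24 towards POF_2, or 45.2% in all, against 27.2% of the 11210 genes. The same POF values chose the 199, so these shares are given as a description. Across the 199 genes the levels in POF_1 and POF_2 were only weakly related, with a Spearman coefficient of 0.19. Across the 11210 genes it was 0.77, though these span a far wider range of levels. Genes are not independent replicates, and these coefficients describe the libraries. The minimum in the rule also limits the range over which the levels of the 199 can vary together.

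**Figure D2:**
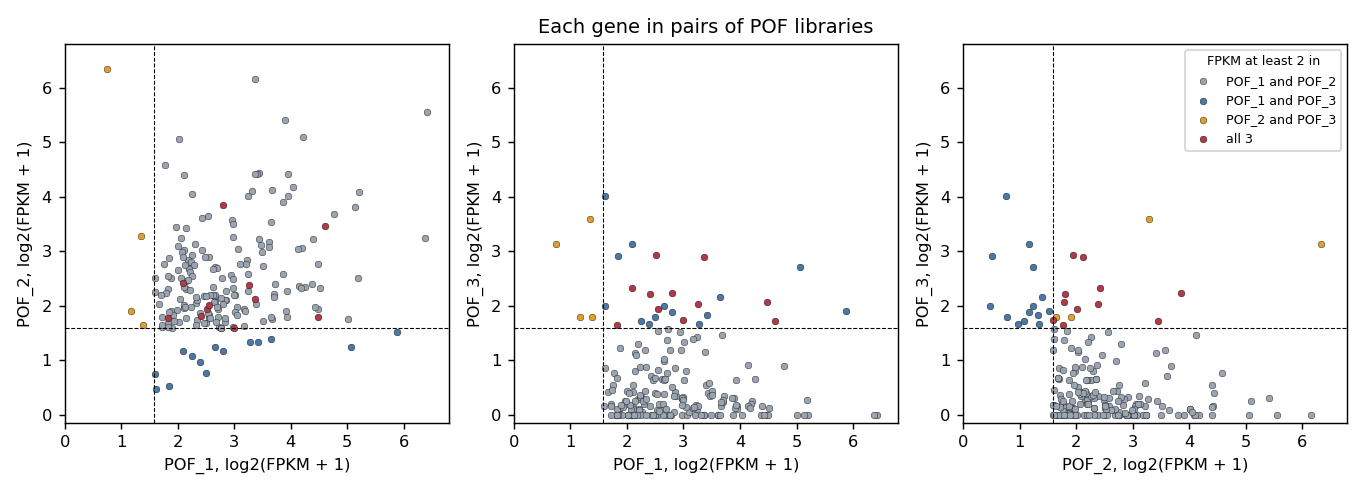
Each of the 199 genes in pairs of POF libraries, as log2(FPKM + 1), coloured by the libraries in which it had at least 2 FPKM (dashed lines). In the left panel most genes lie above both lines, and in the other panels 170 genes lie below the line of POF_3, 46 of them at 0.

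Each POF library can be left out of the choice of genes and then read. When genes were chosen on POF_2 and POF_3 alone there were 15, and 11 of them (73.3%) reached 2 FPKM in POF_1, against 4.43% of all 9287 genes with a mean below 0.5 FPKM in each of the other 9 stages. When they were chosen on POF_1 and POF_3 there were 25, and 11 (44.0%) reached it in POF_2, against 2.81%. When they were chosen on POF_1 and POF_2 there were 181, and 11 (6.08%) reached it in POF_3, against 0.948%. The 11 genes are the same in each case, so these readings are not independent of one another. The share was above that of the 9287 genes in each case, but with POF_3 as the library left out more than 9 in 10 genes were not recovered. Genes at the minimum in only a single other POF library give a closer baseline. Of these, 184 of 319 (57.7%) reached 2 FPKM in POF_1, 174 of 449 (38.8%) in POF_2 and 18 of 310 (5.81%) in POF_3. The 6.08% for POF_3 was thus close to the share of genes seen in a single other POF library. In checks added after seeing the data, upper quartile scaling between libraries gave 7.58%, against 1.02% of genes under the limit of 0.5 FPKM. Quantile normalization gave 6.67%, against 0.792%. Of the 9287 genes, 2819 were at 0 in every library of the table, which lowers the shares they are compared with.

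**Figure D3:**
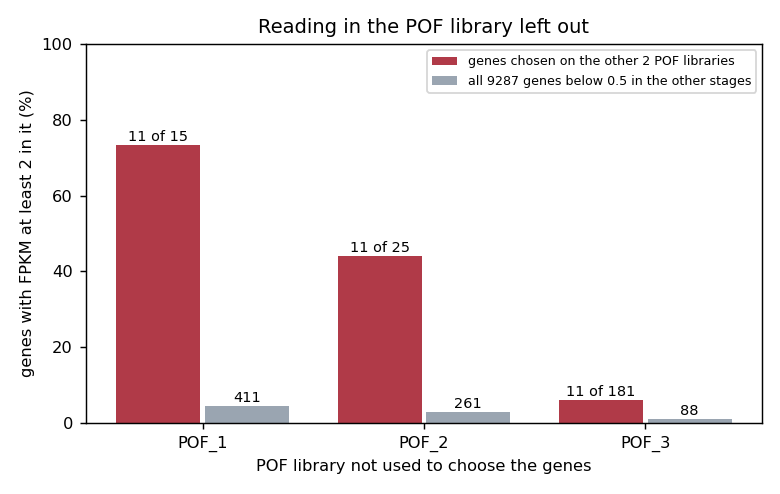
Share of genes with at least 2 FPKM in the POF library that was not used to choose them (red, with counts), beside the share over all 9287 genes with a mean below 0.5 FPKM in the other 9 stages (grey). The red bars stand at 73.3%, 44.0% and 6.08% for POF_1, POF_2 and POF_3.

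A less strict reading gave the same order. The left-out library lay above all 27 libraries of the other stages for 15 of 15 genes (100%) in POF_1, against 19.5% of the 9287 genes. In POF_2 it did so for 21 of 25 (84.0%), against 13.1%, and in POF_3 for 50 of 181 (27.6%), against 10.2%. At 0.5 FPKM or more, POF_3 held 50 of the 181 genes (27.6%), against 5.59%, and 46 (25.4%) were at 0. These groups of 50 are not the same, and 43 genes were in both.

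From the side of each library, 411 of the 9287 genes reached 2 FPKM in POF_1, 261 in POF_2 and 88 in POF_3. The 199 genes made up 47.4% of them in POF_1, 70.9% in POF_2 and 33.0% in POF_3. In turn 216 genes reached the minimum in POF_1 alone, 76 in POF_2 alone and 59 in POF_3 alone. POF_3 thus had genes of its own that the rule does not take in, since they lack a second library.

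Other measures of the libraries moved with this split. ZP3 read 341 FPKM in POF_1, 1182 in POF_2 and 9970 in POF_3, whereas the 199 genes summed to 1713, 1321 and 182 FPKM in the same order. The 16 mitochondrially encoded genes named in the study held 14.1%, 21.9% and 30.6% of the summed FPKM. POF_3 also belongs to the 6 libraries that have a higher base quality in the study, while POF_1 and POF_2 do not. Their part in the difference between POF libraries was not tested. In such layers, fewer cells of a type and less RNA per cell cannot be told apart.

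Before ovulation the genes were low but not absent. Each of the 199 was above 0 in at least 1 of the 27 libraries, and a gene was above 0 in a median of 10 of them. Of the other genes of the 9287, 5744 were also above 0 in at least 1 of the 27, while the rest were at 0 in all of them. A reading above 0 is thus not particular to the 199, though it was found for all of them. A reading of 0.5 FPKM or more in some library was found for 127 genes and of 1 FPKM or more for 22, and the highest was 1.37 FPKM. The genes are therefore better described by the rule than as genes seen only after ovulation.

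These low readings were not spread evenly over the stages. The highest stage mean was that of LWF for 87 genes (43.7%) and that of SWF for 78 (39.2%), while each of the other 7 stages had between 2 and 9. Of the 5744 other genes of the 9287 that were above 0 in these stages, LWF was highest for 16.6% and SWF for 36.3%. The place of LWF rested on LWF_2, since without that library, a check added after seeing the data, the count was 27 for LWF (13.6%, against 11.0% of the other genes) and 121 for SWF (60.8%, against 39.3%). The summed FPKM of the 199 genes was 50.9, 54.0 and 24.9 in the SWF libraries. In LWF it was 23.3, 90.0 and 18.7 FPKM in LWF_1, LWF_2 and LWF_3. It averaged 18.6 ± 10.3 FPKM (SD, n = 3) in SYF, and from LYF to F1 no library exceeded 17.2 FPKM. In F1, the last stage before ovulation, it was 7.02 ± 1.87 FPKM (SD, n = 3), with 111 genes at 0 in all 3 libraries. The mean sum in SWF was 6.16 times that in F1, and over the other genes of the 9287 it was 3.18 times, at 530 FPKM in SWF and 166 in F1.

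A single library carried much of this signal. LWF_2 had 82 of the 199 genes (41.2%) at 0.5 FPKM or more, against 3.12% of the 9287 genes. LWF_1 had 5 (2.51%), against 0.775%, and LWF_3 had 6 (3.02%), against 0.958%. In SWF_1 there were 32 (16.1%), against 2.40%, in SWF_2 42 (21.1%), against 3.00%, and in SWF_3 11 (5.53%), against 3.08%. LWF_2 exceeded both other LWF libraries for 160 of the 199 genes (80.4%), against 54.6% of the other genes of the 9287 that were above 0 in any LWF library. Its sum over them was 4.29 times the mean of the other 2. Over the remaining genes of the 9287 the same ratio was 1.98. Without LWF_2, 101 genes had a reading of 0.5 FPKM or more and 9 one of 1 FPKM or more.

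**Figure D4:**
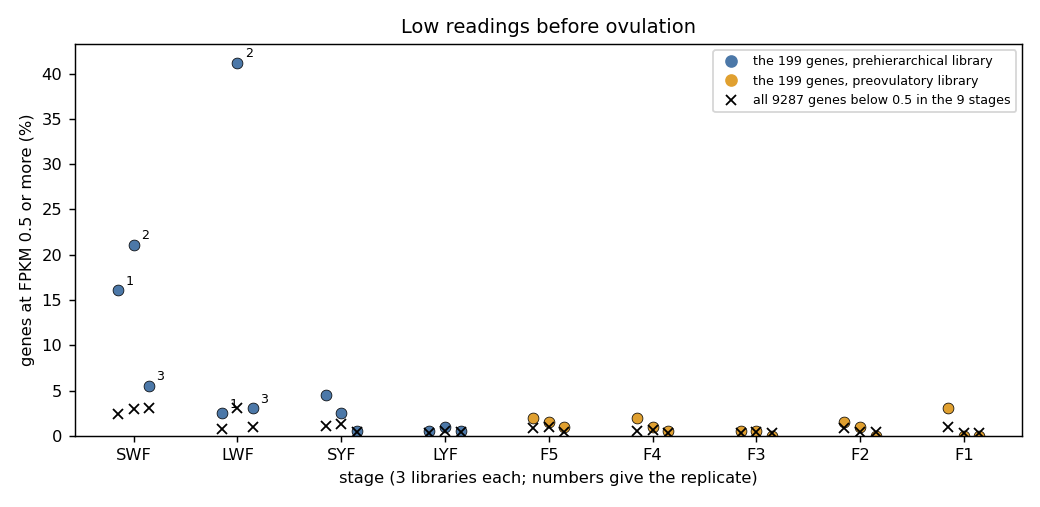
Share of the 199 genes (circles) and of all 9287 genes with a mean below 0.5 FPKM in the 9 stages (crosses) at 0.5 FPKM or more in each library before ovulation. LWF_2, with 41.2%, stands above LWF_1 and LWF_3, and SWF_1 and SWF_2 follow with 16.1% and 21.1%.

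Over all 199 genes, POF_3 summed to 182 FPKM and LWF_2 to 90.0, a ratio of 2.02. For 109 of the 199 the value was higher in LWF_2 than in POF_3. All 109 were among the 170 genes that the pattern itself places below 2 FPKM in POF_3. The ZP3 level of LWF_2 was 3226 FPKM, between those of LWF_1 and LWF_3, at 2301 and 3490 FPKM.

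The low readings of the 29 genes that POF_3 shared differed from those of the other 170 mainly in a single library, SWF_2. In SWF_2, 16 of the 29 (55.2%) read 0.5 FPKM or more, with a median of 0.512 FPKM, against 26 of the other 170 (15.3%), with a median of 0.125. In LWF_2 the shares were 51.7% and 39.4%, and in SWF_1 20.7% and 15.3%. In SWF_3, LWF_1 and LWF_3 at most 6.90% of either group did so. The SWF values were used in the rule only as a limit on the stage mean, and this difference was noticed after the values were seen, so it is given as a description.

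Whether the low readings differed between stages before ovulation was tested by limma on log2(FPKM + 1) over 15197 genes, with Benjamini-Hochberg adjustment over all of them. All 199 passed the filter on low values, which they do through POF, a stage that takes no part in these comparisons. Where both a fold over 1.5 in FPKM + 1 and an adjusted p under 0.05 were required, limma called 0 of the 199 genes between SWF and F1, against 52.9% of all genes, with 42 (21.1%, against 62.2%) at an unadjusted p under 0.05. Between the 4 prehierarchical and the 5 preovulatory stages it also called 0, against 33.8%, with 104 (52.3%, against 66.8%) at an unadjusted p under 0.05. The limit of 0.5 FPKM on each stage mean leaves no room for a fold over 1.5 on this scale, so the counts of 0 are set by the rule. Apart from POF_3, the libraries of higher base quality were F4_3, F3_3, F2_3, F1_2 and F1_3, all preovulatory. Base quality and stage are therefore partly confounded in both comparisons. With a term for base quality, limma gave 81 of the 199 (40.7%) an unadjusted p under 0.05 between prehierarchical and preovulatory stages. Of all 15197 genes, 9389 had one. Between SWF and F1 the term leaves F1_1 alone for F1. The median log2 difference was then 0.21 for the 199 genes and 0.54 for all genes.

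By the adjusted p alone, 86 of the 199 genes (43.2%, against 51.0% of all genes) were higher in the prehierarchical stages and 2 (against 12.5%) were lower. Between SWF and F1, 26 (13.1%, against 47.7%) were higher in SWF and 2 (against 9.06%) lower. Without scaling, the median log2 difference was 0.13 for the 199 genes and 0.28 for all genes in the first comparison, and 0.21 and 0.60 in the second. With upper quartile scaling the order was the other way, at 0.10 and 0.06 in the first and 0.16 and 0.11 in the second. With a pseudocount of 0.1 and the fold threshold kept, limma called 99 of the 199 (49.7%, against 38.5%) higher in the prehierarchical stages and 52 (26.1%, against 47.8%) higher in SWF. Without scaling between libraries, the share of the 199 lay under that of all genes except between prehierarchical and preovulatory stages with a pseudocount of 0.1. Nothing is read from these shares, since the rule limits the values compared. By the adjusted p alone, upper quartile scaling left 69 of the genes (34.7%, against 32.8% of all genes) higher in the prehierarchical stages. It left 4 (against 24.1%) lower. Quantile normalization left 23 (11.6%, against 29.4%) higher and 16 (against 25.9%) lower. Without LWF_2, 69 (34.7%, against 49.1%) were higher and 3 (against 12.3%) lower. The rule limits these values too, so nothing is read from them either.

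Membership at the edges of the rule turned on small differences. The genes closest inside had a second highest POF value of 2.013, 2.018 and 2.022 FPKM, and those closest outside 1.996, 1.985 and 1.984. The highest stage means elsewhere were 0.4985, 0.4962 and 0.4937 FPKM just inside and 0.5003, 0.5074 and 0.5080 just outside.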

How the data were processed

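The authors removed low-quality, adapter and rRNA reads from strand-specific, rRNA-depleted libraries, aligned what remained with HISAT2 2.1.0 (build GRCg6a) and quantified it with StringTie 1.3.3. The deposited values are FPKM per gene and library, with genes at 0 kept. No scaling between libraries is described, and none was added. FPKM are not counts, so no count model was used. Genes that exceeded 0.5 FPKM in 2 or more of a stage's libraries were tested by limma 3.58.1 in R 4.3.3 on log2(FPKM + 1), with SWF and F1 fitted on their own libraries and the 9 stages before ovulation in one fit of stage means. The fit was tested on simulated data. Stages come from the sample descriptions. POF was not tested against other stages, since the rule used that contrast.

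The genes, lists and tests were chosen with earlier results of these data known. The rule for named genes took members on 20 lists of markers and pathways, the highest in POF and neighbours on a chromosome. With 0 of 199 identifiers paired with a symbol, the lists could not be applied, and 2 identifiers are named, as the rule allows. The 36 genes that the study reports among the most highly expressed at every stage supplied ZP3 and the mitochondrial genes. Figures were drawn with matplotlib 3.10.9.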

Additional observations from a re-analysis of the deposited data

How the results depend on the processing

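The number of genes found by the rule, 199, became 389 with a minimum of 1 FPKM, 66 with 4 FPKM, 75 with a limit of 0.25 FPKM on the other stage means, 72 with every library before ovulation below 0.5 FPKM and 11 when all 3 POF libraries were required. Leaving out POF_1, POF_2 or POF_3 gave 15, 25 or 181 genes. Upper quartile scaling gave 218 genes, 177 of them among the 199. Quantile normalization gave 141, of which 73 were, and so changed most of the membership. Without LWF_2 there were 237, with 198 of the 199 (chosen after seeing the data). The share read again in POF_3 was 6.08%, against 0.948% of genes under the limit. It was 17.0% (against 2.27%) with a minimum of 1 FPKM, 0% (0.301%) with 4 FPKM and 2.74% (0.458%) with the limit of 0.25 FPKM (also chosen after seeing the data).

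Between SWF and F1, where limma called 0 of the 199 genes, it called 28 by the adjusted p alone, against 8621 of 15197 genes. With a pseudocount of 0.1 it called 56, against 8597. It called 1 with upper quartile scaling, against 6289, and 5 with quantile normalization, against 5924. A term for the higher base quality gave 1, against 6255. This term leaves F1_1 alone for F1. Under either scaling all calls were lower in SWF, as no difference the other way reached the fold. Leaving out 1 library gave 0 to 9. The 9 came without SWF replicate 3, all higher in SWF, against 7491 of all genes in either direction. Between prehierarchical and preovulatory stages it called 102 with a pseudocount of 0.1, against 7335. By the adjusted p alone it called 88, against 9643. Added after seeing the data, the adjusted p alone gave 73 with upper quartile scaling (against 8656), 39 with quantile normalization (8412) and 72 without LWF_2 (9334). Same-numbered SWF and F1 libraries' deviations from stage means correlated at 0.03, 0.09 and -0.04 (others -0.15 to 0.13), so pairing is unknown. With the replicate number as a block limma called 0 of the 199 in both comparisons, again set by the limit on the stage means. By the adjusted p alone it called 89 between prehierarchical and preovulatory stages, against 9781 of all genes. Scaling moved the median log2 difference of all genes between SWF and F1 from 0.60 to 0.11 by the upper quartile and to 0.02 by quantile normalization. Depth per gene is unknown, so a value of 0 or below 0.5 FPKM does not separate absence from few fragments.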
